A study of Mus musculus with 10 samples.

Results

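The 10 genes followed here belong to acetylcholine signalling and were read in all mice of the study: the muscarinic receptor genes Chrm1, Chrm2, Chrm3 and Chrm4, the nicotinic subunit genes Chrna4, Chrna7 and Chrnb2, the esterase genes Ache and Bche, and Lynx1, whose protein modulates nicotinic receptors. They were chosen by symbol, and all 10 were found among the 31510 genes of the deposited table. The tissue was microdissected hippocampus of male APP/PS1 mice (34832-JAX), a strain whose transgenes make it deposit amyloid, so mice of both groups carried those transgenes. One group of 5 mice received AAV8-Irisin-FLAG in the tail vein at 8 months of age, and 5 control mice received AAV8-GFP by the same route. The AAV8 vector was meant to make the liver the source of circulating irisin, the secreted part of Fndc5, and tissue was taken 2 months after injection. Mice without the transgenes, or without a vector, were not analysed here.

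Acetylcholine reaches the hippocampus mainly through axons of septal and diagonal band neurons whose cell bodies lie outside it. There it acts on muscarinic receptors, which signal through G proteins, and on nicotinic receptors, which are ion channels made of 5 subunits. Acetylcholinesterase ends the signal by cleaving the transmitter, and butyrylcholinesterase cleaves it too. Loss of this projection is a feature of Alzheimer's disease, and inhibitors of acetylcholinesterase are prescribed for it.

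None of the 10 genes passed an adjusted p of 0.05 by limma for AAV8-irisin against AAV8-GFP, which was also the count over all 17556 genes tested (0.0%). Chrm2 had the widest group difference of the 10, with a mean 1.23-fold that of AAV8-GFP, and was the 1 gene of the 10 with an unadjusted p under 0.05, a share to be read against 4.49% of all genes tested. Means of the other 9 genes lay between 0.955-fold and 1.09-fold those of AAV8-GFP. Of the 10, 5 had a higher log2 mean in AAV8-irisin and 5 a lower one, and their median log2 difference was −0.0017, beside 0.00099 over all genes tested. Groups overlapped for each of the 10 genes, while they did not overlap for 0.803% of all genes tested. Across the 10 mice, Chrm2 and Lynx1 varied in opposite directions more closely than any other of the 45 pairs of these genes.

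Summed normalised counts ran from 35284321 to 36623029 per library, and 22434 to 23035 genes had a value above 0. At an unadjusted p under 0.05 limma gave 788 of the 17556 genes, and an exact permutation test of each gene gave 791, with 0 past the adjusted threshold in either. The smallest p that 5 mice against 5 can give by permutation is 0.00794. After adjustment, permutation could pass a gene only if a large share of all genes had a p near that, so its 0 adds little. Marker genes of dentate granule cells, CA1 pyramidal cells and CA3 pyramidal cells passed the filter in 9 of 9, 8 of 8 and 6 of 6 cases. That does not single out hippocampus, since 12 of 12 striatal, 13 of 14 thalamic and 6 of 6 neocortical markers passed it too. AAV8-GFP mouse 3 stood apart in these lists, with the lowest summed level of dentate, interneuron, oligodendrocyte and neocortical markers and the highest of CA3, astrocyte, microglia and endothelial markers. Without that mouse no gene of the 10 passed the threshold (limma, adjusted p of 0.971 or more), and log2 differences were −0.038 for Chrm1, −0.00083 for Chrm3, −0.13 for Chrm4, 0.076 for Chrna4, 0.026 for Chrna7, −0.0087 for Chrnb2, 0.0011 for Ache and −0.066 for Bche. Those of Chrm2 and Lynx1 are given with their values. In bulk tissue, fewer cells of a type and less RNA per cell cannot be told apart.

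Levels of different genes were compared per kilobase of annotated exon. Lynx1 was the highest of the 10, with 2763 ± 57.2 normalised counts per kilobase in AAV8-irisin and 2895 ± 109 in AAV8-GFP (SD, n = 5 each). Chrm1 followed with 1394 ± 40.7 in AAV8-irisin and 1443 ± 61.7 in AAV8-GFP, then Ache with 459 ± 17.0 and 454 ± 17.6 in the same order of groups. The ranges of these 3 genes over the 10 mice did not overlap. Chrm3, Chrnb2, Chrm4 and Chrna7 came next, with means over the 10 mice of 335, 333, 285 and 226 normalised counts per kilobase, and each of these overlapped its neighbour in that order. Chrna4 averaged 148, Chrm2 47.6 and Bche 23.6, each below the lowest mouse of the gene before it. The annotated model of Chrm4 (chromosome 2, 91927249 to 91928688, plus strand) is a single exon of 1440 bases, a multiple of 3 with no untranslated part, so its place in the order is uncertain.

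**Figure D1:**
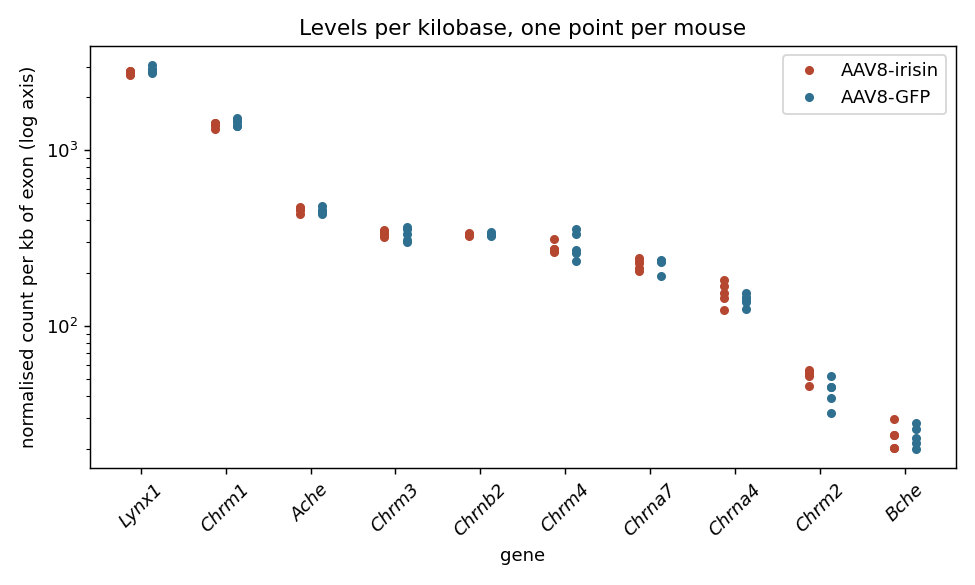
Normalised count per kilobase of annotated exon on a log axis for the 10 genes, ordered by their mean over all mice, with 1 point per mouse and AAV8-irisin left of AAV8-GFP. Lynx1 and Chrm1 are the highest, Chrm2 and Bche the lowest, and the points of Chrm3, Chrnb2, Chrm4 and Chrna7 overlap their neighbours.

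Among muscarinic receptors, Chrm1 and Chrm3 couple to Gq proteins and phospholipase C, and Chrm2 and Chrm4 to Gi proteins. Chrm1, the main excitatory muscarinic receptor of hippocampal pyramidal cells (GRCm38 chromosome 19, 8663789 to 8683587, plus strand), had 8631, 9303, 9240, 8992 and 9063 normalised counts in AAV8-irisin mice 1 to 5. It had 8978, 9378, 9642, 9859 and 8954 in AAV8-GFP mice 1 to 5. All 5 AAV8-irisin mice lay below the AAV8-GFP mean, and AAV8-irisin mouse 1 alone lay under every AAV8-GFP mouse. The log2 difference was −0.049 (standard error 0.035, 95% interval −0.12 to 0.026; limma, adjusted p = 0.942). As a change in level, that interval runs from −8.27% to 1.84%.

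Chrm2 encodes the M2 receptor, which in the hippocampus is found on cholinergic terminals, where it restrains release, and on GABAergic interneurons (chromosome 6, 36388084 to 36528414, plus strand). Its normalised count was 342, 324, 274.1, 333 and 315 in AAV8-irisin mice 1 to 5. It was 236, 316, 194, 273.5 and 272 in AAV8-GFP mice 1 to 5. The highest AAV8-GFP mouse was exceeded by 3 of 5 AAV8-irisin mice, and 4 of 5 AAV8-GFP mice lay below the lowest AAV8-irisin mouse, AAV8-GFP mouse 4 by less than 1 normalised count. AAV8-GFP mouse 2 was the exception, with a level inside the AAV8-irisin range. Means were 318 ± 26.4 in AAV8-irisin and 258 ± 45.6 in AAV8-GFP (SD, n = 5 each). The log2 difference was 0.31 (standard error 0.11, 95% interval 0.068 to 0.56). By limma the unadjusted p was 0.0159 and the adjusted p 0.942. By unadjusted p the gene stood at place 213 of 17556, and 5.50% of the genes tested had a wider difference in either direction. The exact two-sided permutation p was 0.0317 before adjustment. Without AAV8-GFP mouse 3, the lowest of the 10, the log2 difference was 0.22 (limma, adjusted p = 0.971), and without AAV8-GFP mouse 2 it was 0.39 (limma, adjusted p = 0.795). A lincRNA gene on the opposite strand, 9330158H04Rik, shares 142 bases of exon with Chrm2, and strand was not stated in the sources used here, so part of its value is uncertain. The same holds for Chrm1, which shares 329 bases with Gm22820, and for Ache, which shares 98 with Gm42456.

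The 250 bases before the annotated start of Chrm2 are shown because this gene had the widest difference and is one of the pair that varied together. They lie at chr6:36387834-36388083 on the plus strand of GRCm38.p6, as given by RefSeq, and capitals mark the one CCAAT box found, which reads ATTGG on this strand.
Chrm2: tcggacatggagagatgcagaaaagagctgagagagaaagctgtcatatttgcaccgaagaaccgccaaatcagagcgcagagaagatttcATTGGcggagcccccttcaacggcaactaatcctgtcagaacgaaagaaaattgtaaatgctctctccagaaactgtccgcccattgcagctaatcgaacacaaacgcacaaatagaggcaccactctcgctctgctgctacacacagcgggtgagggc
Of 32851 windows of the same length, 41.1% had a lower share of G and C than this stretch, and it holds 12 CG dinucleotides beside a median of 6. Both strands were searched for 4 motifs, and the matches did not overlap. CCAAT was found once, as in 33.8% of all windows, and GGGCGG, the GC box, once, as in 32.7%. CACGTG, an E box held by 6.02% of windows, and TATAAA, held by 12.4%, were not among these letters. A match is a description of the sequence and not a binding site.

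Chrm3 (chromosome 13, 9875486 to 10360847, minus strand) ranged from 2007 to 2210 normalised counts in AAV8-irisin and from 1869 to 2280 in AAV8-GFP, so the AAV8-GFP mice enclosed the AAV8-irisin mice. Its log2 difference was 0.024 with a 95% interval of −0.095 to 0.14. Chrm4, the M4 receptor best known from the striatum, had 382, 393, 378, 395 and 453 normalised counts in AAV8-irisin mice 1 to 5. In AAV8-GFP mice 1 to 5 it had 515, 480, 336, 389 and 377. AAV8-GFP mice 1 and 2 were the highest of all 10 and AAV8-GFP mouse 3 the lowest, and 4 of the 5 AAV8-irisin mice lay within 378 to 395. The log2 difference was −0.052 with a 95% interval of −0.28 to 0.18 (limma, adjusted p = 0.967).

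**Figure D2:**
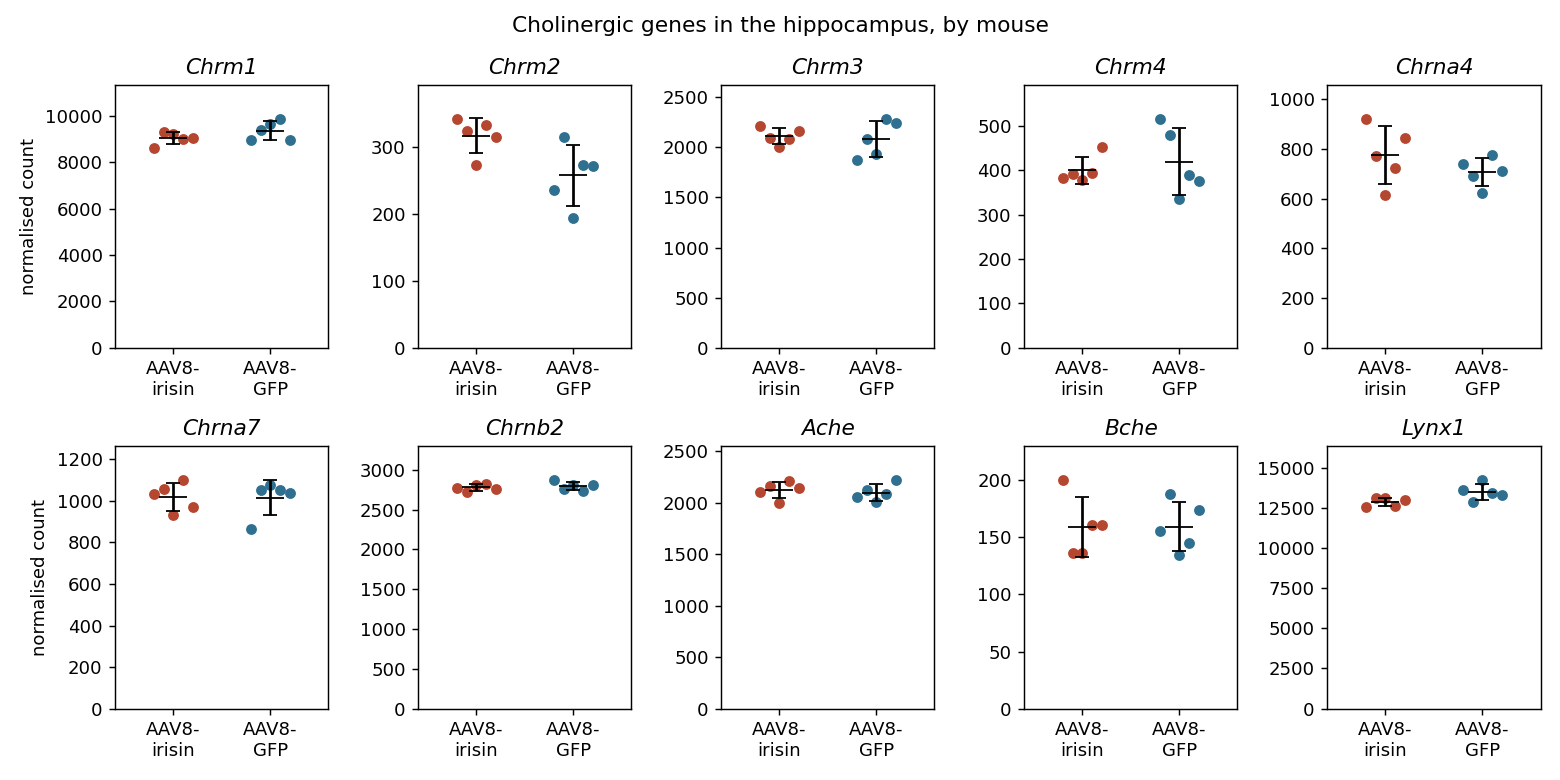
Normalised count of each of the 10 genes, 1 point per mouse in the order of mouse number, with the mean and SD of the 5 mice as a bar, AAV8-irisin left of AAV8-GFP and each axis starting at 0. The 2 groups overlap in each panel, and Chrm2 is the gene whose points are most displaced, at 274 to 342 in AAV8-irisin and 194 to 316 in AAV8-GFP.

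The nicotinic subunits Chrna4 and Chrnb2 assemble with each other into the main high-affinity nicotine receptor of the brain, and Chrna7 forms receptors of its own kind that are highly permeable to calcium. Chrnb2 (chromosome 3, 89746195 to 89764632, minus strand) varied less than nearly all genes tested. It lay between 2727 and 2823 normalised counts in AAV8-irisin and between 2740 and 2874 in AAV8-GFP. Its coefficient of variation over the 10 mice was 1.62%, and 0.387% of the genes tested had a smaller SD within groups on the log2 scale. The log2 difference of Chrnb2 was −0.011 with a 95% interval of −0.078 to 0.057, or −5.26% to 4.02% as a change in level. Exons of Adar on the opposite strand cover 1365 bases of Chrnb2 exon, so reads of Adar may enter its value.

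Its partner subunit did not share that steadiness. Chrna4 (chromosome 2, 181018380 to 181043546, minus strand) had 920, 771, 616, 724 and 845 normalised counts in AAV8-irisin mice 1 to 5 and 739, 690, 624, 775 and 713 in AAV8-GFP mice 1 to 5. AAV8-irisin mice 1 and 5 were the highest of the 10 and AAV8-irisin mouse 3 the lowest, so the AAV8-irisin range enclosed that of AAV8-GFP. The coefficient of variation was 15.0% in AAV8-irisin and 8.04% in AAV8-GFP. The log2 difference was 0.12 (standard error 0.094, 95% interval −0.081 to 0.32; limma, adjusted p = 0.942). It depended on single mice, at 0.056 without AAV8-irisin mouse 1, 0.20 without AAV8-irisin mouse 3 (95% interval 0.028 to 0.37; limma, adjusted p = 0.813) and 0.076 without AAV8-GFP mouse 3. Chrna7 (chromosome 7, 63098692 to 63212569, minus strand) ranged from 931 to 1101 normalised counts in AAV8-irisin and from 865 to 1074 in AAV8-GFP, with a log2 difference of 0.0048 and a 95% interval of −0.14 to 0.15. AAV8-GFP mouse 1 was lowest at 865, and the other 4 AAV8-GFP mice lay between 1038 and 1074.

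Lynx1 encodes a membrane-anchored protein of the Ly6 family that binds nicotinic receptors and dampens their response (chromosome 15, 74747852 to 74753046, minus strand). It had 12570, 13118, 13114, 12623 and 12983 normalised counts in AAV8-irisin mice 1 to 5. It had 13625, 12846, 14247, 13419 and 13340 in AAV8-GFP mice 1 to 5. The highest AAV8-irisin mouse was exceeded by 4 of 5 AAV8-GFP mice, and AAV8-GFP mouse 2 was again the exception. Means were 12882 ± 266 in AAV8-irisin and 13495 ± 508 in AAV8-GFP (SD, n = 5 each). The log2 difference was −0.067 (standard error 0.032, 95% interval −0.13 to 0.0012). By limma the unadjusted p was 0.0535 and the adjusted p 0.942. The exact permutation p was 0.0397 before adjustment. That test thus counted 2 of the 10 genes under 0.05 and limma 1, beside 791 and 788 of all 17556 genes tested. Without AAV8-GFP mouse 3 the log2 difference was −0.047.

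The ranges of the groups overlapped almost fully for both esterases. Ache (chromosome 5, 137287519 to 137294466, plus strand) lay between 2000 and 2210 normalised counts in AAV8-irisin and between 2004 and 2221 in AAV8-GFP, with a log2 difference of 0.018 and a 95% interval of −0.070 to 0.10, or −4.71% to 7.52% as a change in level. Bche (chromosome 3, 73635808 to 73708415, minus strand), the esterase with the lower level, had 200, 137, 137, 161 and 161 normalised counts in AAV8-irisin mice 1 to 5 and 156, 188, 135, 145 and 174 in AAV8-GFP mice 1 to 5. Bche had the widest interval of the 10 genes, −0.27 to 0.26 around a log2 difference of −0.0081, or −17.3% to 19.5% as a change in level. A p that misses the threshold does not show equal levels, and the intervals give what 5 mice per group could resolve.

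**Figure D3:**
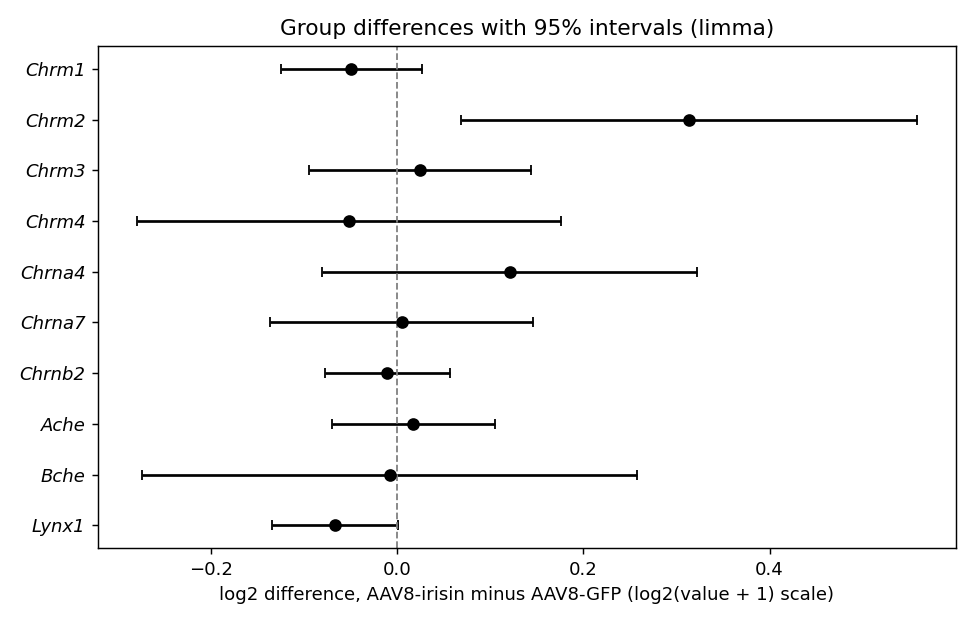
Log2 difference of each gene, AAV8-irisin minus AAV8-GFP, with its 95% interval from limma, on the log2(value + 1) scale. The interval of Chrm2, 0.068 to 0.56 before any adjustment for the number of genes, is the one that does not include 0, and the narrowest intervals belong to Chrnb2 and Lynx1.

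The 10 genes were compared with each other across mice by Pearson correlation of log2(value + 1), with permutation tests adjusted over the 45 pairs. One pair passed. Chrm2 and Lynx1 had r = −0.958 over the 10 mice (permutation p = 4.0e-05, adjusted p = 0.0018), with Spearman rho = −0.915 (permutation p = 5.6e-04, adjusted p = 0.0252). The order of the mice for Chrm2, with AAV8-irisin mice 1 and 4 highest and AAV8-GFP mice 1 and 3 lowest, was nearly the reverse of that for Lynx1. With each value centred on its group mean, r was −0.927 (permutation p = 3.0e-04, adjusted p = 0.0135). Centred values were permuted over all 10 mice and not within groups, so p-values from centring may be too small here and below. Without AAV8-GFP mice 1 and 3, the 2 farthest from the median of Chrm2, r was −0.863. Leaving out each mouse in turn gave r between −0.982 and −0.908, the weakest without AAV8-GFP mouse 3. The sizes of the movements differed, with a highest mouse 1.76 times the lowest for Chrm2 and 1.13 times for Lynx1.

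**Figure D4:**
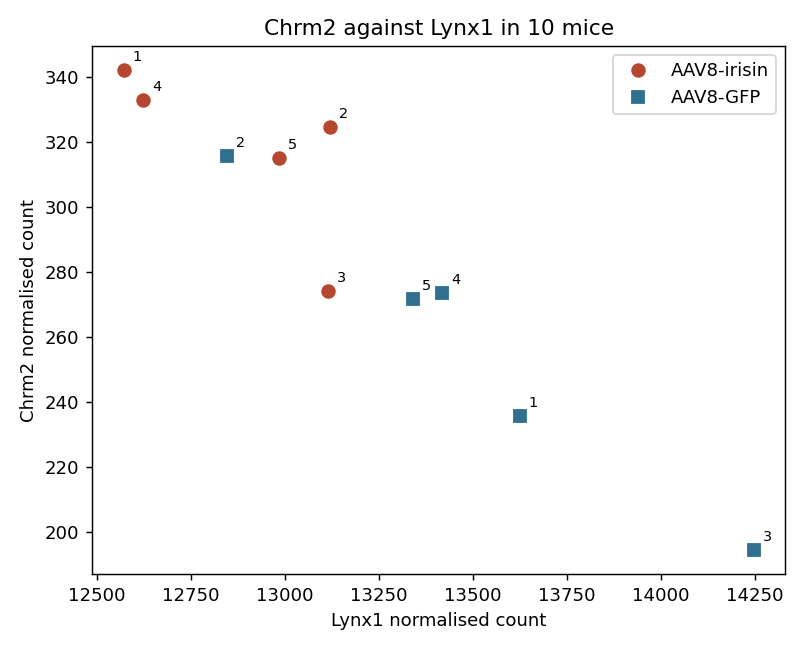
Normalised count of Chrm2 against that of Lynx1, 1 point per mouse with its mouse number, AAV8-irisin as circles and AAV8-GFP as squares. Points run from AAV8-irisin mouse 1, with 342 for Chrm2 and 12570 for Lynx1, to AAV8-GFP mouse 3, with 194 for Chrm2 and 14247 for Lynx1.

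As a background, chosen after the pair was seen, each gene of the pair was compared with all other tested genes over the same 10 mice. One of 17555 genes (0.0057%) was as strongly correlated with Lynx1 as Chrm2 was, namely Chrm2 itself. For Chrm2, Lynx1 held the second place. The second principal component of all tested genes, with 13.2% of the variance, moved with both genes: r was −0.770 for Chrm2 (permutation p = 0.0132, adjusted p = 0.0396) and 0.774 for Lynx1 (permutation p = 0.0119, adjusted p = 0.0396), adjusted over 6 relations. Spearman rho was −0.552 for Chrm2 (permutation p = 0.105, adjusted p = 0.315) and 0.552 for Lynx1 (permutation p = 0.105, adjusted p = 0.315). Without AAV8-irisin mouse 4 and AAV8-GFP mouse 3, r with that component was −0.252 for Chrm2 and 0.209 for Lynx1. Those r thus depended on these mice, whose removal also narrows the range of the component. The part of that component in the pair's relation was not tested.

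The remaining 44 pairs did not pass. The largest r of these, without centring, were those of Chrm2 with Ache (r = 0.633, permutation p = 0.0478, adjusted p = 0.364; rho = 0.430, permutation p = 0.218, adjusted p = 0.716) and Chrm1 with Bche (r = −0.630, permutation p = 0.0509, adjusted p = 0.364; rho = −0.612, permutation p = 0.0687, adjusted p = 0.716). Without the 2 mice farthest from the median these were 0.307 and −0.421. Bche with Lynx1 had r = −0.613 (permutation p = 0.0564, adjusted p = 0.364), but was the strongest of the 44 by rho, at −0.697 (permutation p = 0.0301, adjusted p = 0.678), and by r centred on group means, at −0.823 (permutation p = 0.00271, adjusted p = 0.0610). Without AAV8-irisin mouse 1 and AAV8-GFP mouse 2 its uncentred r was −0.378. The receptor partners Chrna4 and Chrnb2 had r = −0.360 (permutation p = 0.310, adjusted p = 0.497; rho = −0.333, permutation p = 0.349, adjusted p = 0.716), and −0.397 without the 2 farthest mice. Ache and Bche had r = 0.452 (permutation p = 0.190, adjusted p = 0.389; rho = 0.467, permutation p = 0.179, adjusted p = 0.716), and 0.0309 without the 2 farthest mice.

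**Figure D5:**
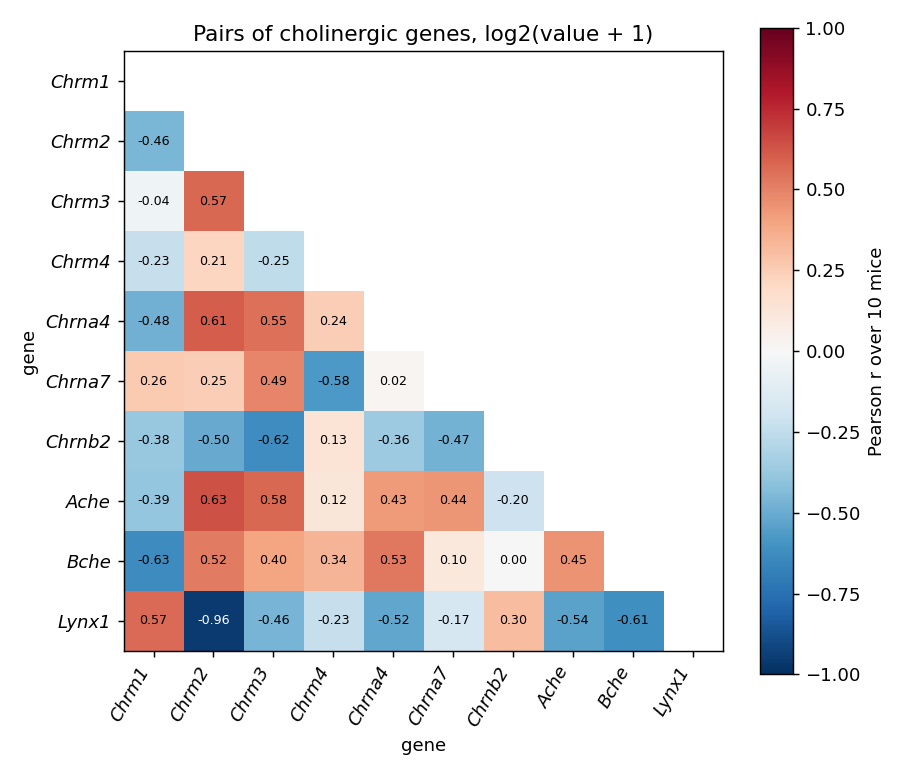
Pearson r over the 10 mice for the 45 pairs of genes, from log2(value + 1), with blue for negative and red for positive values. The pair of Chrm2 and Lynx1, at −0.958, is the darkest cell, and each of the others lies between −0.630 and 0.633.

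Marker lists of regions and cell types were set beside the 10 genes, since dissection can change the share of each in a sample. Of 12 lists, 8 were used for correlation, namely dentate, CA1, CA3, interneuron, striatum, thalamus and habenula, oligodendrocyte and choroid plexus. Those of neocortex and subiculum, astrocytes, microglia and endothelium were not correlated with the 10 genes. None of 80 relations between a gene and the 8 lists passed. By Pearson r the smallest adjusted permutation p was 0.540 and 5 had an unadjusted p under 0.05, and by Spearman rho these were 0.225 and 7. The 5 by Pearson r were Chrm4 with thalamus and habenula (r = 0.716) and with CA3 (r = −0.684), Chrna7 with CA3 (r = 0.701) and with thalamus and habenula (r = −0.677), and Chrna4 with striatum (r = 0.678), each with an adjusted permutation p of 0.540. Their rho values were 0.527, −0.236, 0.709, −0.697 and 0.661 in the same order, with permutation p of 0.122, 0.515, 0.0269, 0.0297 and 0.0437 before adjustment. Without the 2 farthest mice r was 0.266, 0.249, 0.184, −0.313 and 0.419. For Chrm4 and Chrna7 these were AAV8-GFP mice 1 and 3, and leaving out the extremes also narrows the range. The rho of Chrna7 was close to its r over all mice, while that of Chrm4 was weaker. The smallest p by rho was that of Chrna7 with interneuron markers, with rho = −0.855 (permutation p = 0.00281, adjusted p = 0.225) and r = −0.515 (permutation p = 0.126, adjusted p = 0.578), or r = −0.268 without AAV8-irisin mouse 4 and AAV8-GFP mouse 3. With values centred on group means the strongest was Chrm4 with striatum, at r = 0.787 (permutation p = 0.00782, adjusted p = 0.502). Interneuron markers summed to 30951 to 33133 normalised counts in AAV8-irisin and 27639 to 32865 in AAV8-GFP, and 7 of 12 had a higher log2 mean in AAV8-irisin. Their score had r = 0.487 with Chrm2 (permutation p = 0.154, adjusted p = 0.615; rho = 0.261, permutation p = 0.469), and 0.239 without the 2 farthest mice. The striatal score had r = 0.545 with Chrm2 (permutation p = 0.102, adjusted p = 0.578; rho = 0.673, permutation p = 0.0388, adjusted p = 0.486) and −0.586 with Lynx1 (permutation p = 0.0723, adjusted p = 0.578; rho = −0.673, permutation p = 0.0385, adjusted p = 0.486). Without AAV8-irisin mice 1 and 5 these r were 0.419 and −0.504, and within groups, by centring, 0.292 and −0.356. Neither gene of the pair thus passed with striatal markers, and their part in the pair's relation was not tested.

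Choroid plexus markers had higher log2 means in AAV8-irisin in 9 of 9 tested, of which 0 were called and 3 had an unadjusted p under 0.05 by limma. Their summed levels overlapped, at 1201 to 3079 in AAV8-irisin and 975 to 1235 in AAV8-GFP. The highest was AAV8-irisin mouse 4, in which Ttr reached 1528. Without that mouse the log2 difference was 0.30 for Chrm2 and −0.059 for Lynx1, close to the values with it. Oligodendrocyte markers had higher log2 means in AAV8-irisin in 11 of 11, with sums of 69689 to 83378 in AAV8-irisin and 60520 to 80734 in AAV8-GFP. Striatal markers had 8 of 12 higher, with sums of 12367 to 13003 in AAV8-irisin and 12166 to 12812 in AAV8-GFP. Microglial markers had 8 of 8 lower, with sums of 13950 to 17503 in AAV8-irisin and 14892 to 19750 in AAV8-GFP. Dentate, CA1, CA3 and thalamic lists had median log2 differences of −0.0076, −0.0020, −0.049 and −0.0039, and those of neocortex and subiculum, astrocytes and endothelium 0.011, −0.016 and −0.062. Thalamic differences ran in both directions, from −0.46 to 0.25, and 4 of 13 tested had an unadjusted p under 0.05 by limma. Interneuron and striatal lists each had 2 of 12 such markers, beside 4.49% of all genes tested. The part of these differences in the values of the 10 genes was not tested.

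Among genes of cholinergic neurons themselves, those for the synthesis and vesicular loading of acetylcholine were near 0, while 2 others passed the filter. Chat, the enzyme that makes acetylcholine, had 1.86 ± 0.632 normalised counts in AAV8-irisin and 1.95 ± 0.980 in AAV8-GFP (SD, n = 5 each). Slc18a3, the vesicular acetylcholine transporter, had 1.06 to 4.17 in AAV8-irisin and 0 to 3.08 in AAV8-GFP, and neither gene passed the filter. Slc5a7, the choline transporter of cholinergic terminals, had 19.1 ± 5.41 in AAV8-irisin and 23.4 ± 7.98 in AAV8-GFP (SD, n = 5 each), a log2 difference of −0.26 (limma, adjusted p = 0.942). Ngfr, the p75 neurotrophin receptor, had 88.7 ± 6.06 and 90.0 ± 10.1 in the same order. Of 7 genes of this list, 2 passed the filter and 0 were called in either direction, with a median log2 difference of −0.14.

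Of 14 other receptor genes, 7 passed the filter and 0 were called, and 5 had a higher log2 mean in AAV8-irisin. Their median log2 difference was 0.15. The smallest unadjusted p belonged to Chrna5, an accessory nicotinic subunit, with 201 ± 28.9 normalised counts in AAV8-irisin and 174 ± 28.8 in AAV8-GFP (SD, n = 5 each), a log2 difference of 0.21 with a 95% interval of −0.075 to 0.50. Chrna1, a subunit of the muscle receptor, followed with 59.2 ± 4.95 in AAV8-irisin and 67.1 ± 7.47 in AAV8-GFP. Chrna6, Chrna9, Chrna10, Chrnb4, Chrnd, Chrne and Chrng did not pass the filter.

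Of 10 genes found for receptor assembly, Ly6 proteins and esterase anchoring, 9 were tested and 0 called, with a median log2 difference of 0.0043. Lypd6, a Ly6 relative of Lynx1, had 721 ± 42.5 normalised counts in AAV8-irisin and 651 ± 53.2 in AAV8-GFP (SD, n = 5 each). Its log2 difference was 0.15 with a standard error of 0.064, and 4 of 5 AAV8-GFP mice lay below the lowest AAV8-irisin mouse (limma, unadjusted p = 0.0348, adjusted p = 0.942). Ric3, a chaperone of nicotinic receptors, had 3015 ± 128 in AAV8-irisin and 2944 ± 152 in AAV8-GFP. Slurp2, the Ly6 gene next to Lynx1 on chromosome 15, was at or near 0.

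Of 14 genes downstream of muscarinic receptors, all 14 were tested and 0 called, with a median log2 difference of 0.0088. Plcb4, a phospholipase C that Gq proteins activate, had 768 ± 43.6 normalised counts in AAV8-irisin and 679 ± 54.6 in AAV8-GFP (SD, n = 5 each). Its log2 difference was 0.18 with a standard error of 0.064, and 3 of 5 AAV8-GFP mice lay below the lowest AAV8-irisin mouse (limma, unadjusted p = 0.0134, adjusted p = 0.942). Gnai2, a Gi protein subunit, had 6046 ± 277 in AAV8-irisin and 6304 ± 160 in AAV8-GFP, a log2 difference of −0.061 (limma, adjusted p = 0.942).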

How the data were processed

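RNA of 10 hippocampi was sequenced after oligo(dT) capture with the NEBNext Ultra kit, per the labels' protocols. The submitters' processing notes name bcl2fastq 2.17, DESeq2 and build mm10, while aligner, counting tool, annotation and strand setting are not given in the sources used here. Values as deposited are a signal per gene that is never negative, named DESeq2 normalised counts by the authors' table. Within 0.1 reads, 49.5% to 72.3% of low values were whole multiples of the most frequent low value, so whole reads were not recovered and depth is unknown. A change common to every gene would be lost in such scaling.

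The filter kept genes that reached 10 in 5 or more libraries, 17556 in all, including the 10 genes described. limma 3.58.1 in R 4.3.3 was fitted to log2(value + 1) with group as factor and trended variance, two-sided, with Benjamini-Hochberg adjustment over all genes and a threshold of 0.05. Fold changes on that scale understate changes of low genes. Correlations used 100000 permutations in Python 3.11.15. The titles name separate mice. Positions and exon lengths are those of GENCODE M21 (GRCm38), with 97.5% of symbols matched. Promoter windows of 8 of the 10 genes were found in the RefSeq table of GRCm38.p6. Fits were tested on simulated data. Alternatives were other pseudocounts, no filter, quantile and TMM-type scaling, array weights, a replicate block, exact permutation and leaving out each mouse.

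The 10 genes and all lists were chosen with earlier results of these data known. Named genes were the 10, the 2 of smallest unadjusted p in each of 4 pathway lists, Chat, Slc18a3 and Slc5a7. Others named were chosen after their values were seen.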

Additional observations from a re-analysis of the deposited data

Results flagged for a closer look

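Among 42 tested genes of the cholinergic lists, with 84 groups of 5 mice examined, 9 had a mouse set apart from the other 4 of its group by Dixon's criterion, which chance meets in about 1 of 20 groups. Of the 9, 4 were in AAV8-GFP mouse 1.

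Chrm4 was 453 in AAV8-irisin mouse 5, against 378 to 395 in the other 4 AAV8-irisin mice. Chrna7 was 865 in AAV8-GFP mouse 1, below the 1038 to 1074 of the other 4 AAV8-GFP mice. Chrm5, a Gq-coupled muscarinic receptor, was 114 in AAV8-GFP mouse 5, against 79.3 to 84.8 in the others. Chrna3, a nicotinic subunit of autonomic ganglia and habenula, was 53.0 in AAV8-GFP mouse 2, against 33.1 to 38.1.

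Lypd1, a Ly6 relative of Lynx1, was 2808 in AAV8-GFP mouse 3, against 3289 to 3467 in the others. Ly6h, another Ly6 gene, was 9385 in AAV8-GFP mouse 1, against 7453 to 7985. In the same mouse Gnaq, the Gq protein subunit, was 10889 against 11390 to 11572, and Plcb1, a phospholipase C of pyramidal cells, was 6772 against 8138 to 8468. Kcnq5, a subunit of the M-current channel that muscarinic receptors close, was 3643 in AAV8-irisin mouse 3, against 3905 to 4009.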

How the results depend on the processing

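Under every alternative fit, 0 of the 10 genes passed the threshold. The 0 of exact permutation adds little, given the smallest p it can give. For correlations the alternatives run were Spearman rho, centring, a pseudocount of 10, quantile normalization and leaving out each mouse. Under each, 1 pair and 0 relations with the 8 marker lists passed. No gene of the whole table passed except 1 without the filter on low values, Gm49383, which had a value above 0 in 5 libraries. Of 180 alternative values of the 10 genes, 166 kept their direction and 14 reversed it, all in genes with log2 differences near 0. No filter, the replicate block and exact permutation give the same log2 difference as the main fit by construction, so those values could not reverse. With array quality weights the log2 difference was −0.0098 for Chrm3 and −0.021 for Chrna7. Leaving out each mouse in turn gave −0.014 to 0.058 for Chrm3, −0.13 to 0.027 for Chrm4, −0.052 to 0.036 for Chrna7 and −0.094 to 0.054 for Bche, and the cause was not tested. It gave 0.22 to 0.39 for Chrm2, 0.056 to 0.20 for Chrna4 and −0.084 to −0.047 for Lynx1. Same-numbered mice did not deviate together, with correlations of −0.0891 to 0.0297, so the numbers do not pair them. With the replicate block 0 genes passed, and 862 had an unadjusted p under 0.05 by limma. Depth could not be read from normalised values, which limits what can be said of genes near 0.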

Other observations

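Ratios within a mouse do not depend on the scaling of libraries. The ratio of Chrm2 to Chrm1 was 0.0352 ± 0.00367 in AAV8-irisin and 0.0276 ± 0.00504 in AAV8-GFP (SD, n = 5 each), and 4 of 5 AAV8-irisin mice exceeded all 5 AAV8-GFP mice. The ratio of Chrm2 to Chrm4, both genes of Gi-coupled receptors, was 0.797 ± 0.0836 in AAV8-irisin and 0.624 ± 0.108 in AAV8-GFP. The ratio of Chrna4 to Chrnb2 was 0.279 ± 0.0434 in AAV8-irisin and 0.253 ± 0.0218 in AAV8-GFP. Ache over Bche was 13.6 ± 1.96 in AAV8-irisin and 13.3 ± 1.42 in AAV8-GFP. These ratios were computed after the values of the genes were seen and were not tested.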
